A study of Mus musculus with 12 samples.

Results

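The epidermal differentiation complex is a stretch of mouse chromosome 3 where genes for proteins of the outer skin layers lie side by side. Its accessible sites were taken here as all deposited ATAC-seq peaks on chromosome 3 that start between positions 90500000 and 94000000 of the mm10 build, which gave 294 of 177240 peaks, or 84 per Mb. That rule uses position alone, but it was chosen with earlier results of these data known. ATAC-seq marks open chromatin by the sites where the Tn5 transposase can insert sequencing adapters, and each count is a read in a peak. Levels below are CPM, a peak's counts scaled to the same fixed total of counts in peaks for every sample, after scaling by the trimmed mean of M values (TMM).

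The 6 samples fall into 5 groups, all from female mice of mixed strain. Hair follicle (HF, n = 1) and interfollicular epidermis (IFE, n = 1) are normal wild-type cells. The tumour cells carry p53fl/fl alleles, a Rosa-YFP+/+ reporter and either K14CreER or Lgr5CreER; cells that express Epcam, a surface protein of epithelia, were sorted from K14CreER tumours (K14 Epcam+, n = 1) and Lgr5CreER tumours (Lgr5 Epcam+, n = 2), and cells without it from Lgr5CreER tumours (Lgr5 Epcam-, n = 1). The K14 promoter is active in basal keratinocytes and the Lgr5 promoter in follicle stem cells. The sort also used antibodies against CD45, CD31 and CD140a, which mark leukocytes, endothelium and fibroblasts, and whether the Epcam- cells are tumour cells by their YFP reporter is not given in the labels. Nothing in them says that the Lgr5 Epcam+ samples came from separate mice, so p-values reflect how far these libraries differ, and that difference may be technical only.

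Keratinocytes build the cornified envelope, the protein shell of a dead surface cell, as they leave the basal layer and differentiate. Genes for its parts lie in this complex: the small proline-rich proteins (SPRR) and late cornified envelope proteins (LCE) that transglutaminases crosslink, involucrin (Ivl) and loricrin (Lor), and the fused S100-type proteins such as filaggrin (Flg), which bundle keratin. At both ends lie S100 genes, whose products bind calcium and which include the S100a8 and S100a9 alarmins of neutrophils and inflamed epidermis. SPRR genes, S100a8, S100a9 and the LCE3 genes are known to be active in wounded or inflamed skin, and AP-1, p63, KLF4 and grainyhead factors are known regulators of the complex.

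Promoters of 7 genes are shown because their peaks stand for the patterns described below. Each stretch is the 250 bases before the RefSeq start site on GRCm38.p6, the assembly of mm10, read 5′ to 3′, and capitals mark the AP-1 motif TGANTCA, which reads the same on both strands. The stretches are Sprr1b at chr3:92438780-92439029 (reverse strand), Sprr2h at chr3:92385435-92385684 (forward strand), Sprr1a at chr3:92485882-92486131 (reverse strand), Ivl at chr3:92573736-92573985 (reverse strand), Crnn at chr3:93144539-93144788 (forward strand), S100a9 at chr3:90695722-90695971 (reverse strand) and 2310050C09Rik at chr3:92870206-92870455 (reverse strand). In Sprr1b and Sprr2h the peak was higher in Epcam+ tumours than in normal epithelia, in Sprr1a, Ivl and Crnn it was open in all Epcam+ samples and lower in Epcam- cells, in S100a9, with no AP-1 match, it was higher in Epcam+ tumours and lower in Epcam- cells, and in 2310050C09Rik it was lower in tumours.
Sprr1b: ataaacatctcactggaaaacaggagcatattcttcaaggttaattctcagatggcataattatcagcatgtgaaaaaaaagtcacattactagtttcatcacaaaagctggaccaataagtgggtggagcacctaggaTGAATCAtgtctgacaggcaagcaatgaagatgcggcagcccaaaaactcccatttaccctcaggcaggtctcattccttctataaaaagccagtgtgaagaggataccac
Sprr2h: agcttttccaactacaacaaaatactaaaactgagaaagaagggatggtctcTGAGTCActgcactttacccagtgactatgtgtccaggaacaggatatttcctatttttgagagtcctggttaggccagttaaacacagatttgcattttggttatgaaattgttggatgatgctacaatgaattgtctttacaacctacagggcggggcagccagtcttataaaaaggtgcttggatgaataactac
Sprr1a: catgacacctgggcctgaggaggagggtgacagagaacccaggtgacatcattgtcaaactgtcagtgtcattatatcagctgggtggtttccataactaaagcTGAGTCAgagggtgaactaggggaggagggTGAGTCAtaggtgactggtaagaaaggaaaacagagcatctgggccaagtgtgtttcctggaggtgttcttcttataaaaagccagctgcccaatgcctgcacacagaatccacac
Ivl: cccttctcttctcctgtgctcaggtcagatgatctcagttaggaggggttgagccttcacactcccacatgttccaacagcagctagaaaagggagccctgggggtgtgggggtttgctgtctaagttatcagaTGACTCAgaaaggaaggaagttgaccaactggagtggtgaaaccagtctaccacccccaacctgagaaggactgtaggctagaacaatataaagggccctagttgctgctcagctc
Crnn: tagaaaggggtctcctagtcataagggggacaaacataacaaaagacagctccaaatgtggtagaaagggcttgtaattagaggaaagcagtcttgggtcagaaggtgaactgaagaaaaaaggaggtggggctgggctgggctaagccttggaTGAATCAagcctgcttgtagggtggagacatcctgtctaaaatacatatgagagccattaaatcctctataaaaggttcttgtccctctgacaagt
S100a9: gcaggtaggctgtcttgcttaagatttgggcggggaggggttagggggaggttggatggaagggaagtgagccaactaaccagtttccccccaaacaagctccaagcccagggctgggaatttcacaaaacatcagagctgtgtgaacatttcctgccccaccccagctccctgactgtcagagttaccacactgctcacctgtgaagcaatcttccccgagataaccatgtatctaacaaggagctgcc
2310050C09Rik: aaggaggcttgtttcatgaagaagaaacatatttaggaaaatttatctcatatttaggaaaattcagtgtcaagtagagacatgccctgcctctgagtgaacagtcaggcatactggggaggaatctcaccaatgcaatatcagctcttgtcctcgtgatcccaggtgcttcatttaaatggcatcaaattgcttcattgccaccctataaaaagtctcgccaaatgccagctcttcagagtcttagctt

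Of 76 genes in the window, 66 had a RefSeq promoter window of 250 bases before to 50 after a start site, 71 windows in all. The AP-1 motif TGANTCA was present in 20 of the 71 (28.2%) and in 7.81% of 32851 windows of all genes. It was found in 9 of 14 SPRR windows, 4 of 6 windows of fused S100-type genes, 3 of 16 S100 windows and 0 of 20 LCE windows. The windows of Sprr2b, Sprr2d, Sprr2e, Sprr2f, Sprr2h, Sprr2i and Sprr2k each held a match between positions -198 and -193 from the start site. These genes are paralogs, so the windows with the motif are not independent of each other. A peak lay over 29 of the 71 windows, and 12 of those 29 held the motif, against 8 of the 42 without a peak. The grainyhead motif AACCNGTT, searched on both strands, was in 3 of 71 windows (4.23%, and 2.09% of all), and a degenerate p53-family motif, also on both strands, in 40.8% and in 70.2% of all. Paralogs share these sequences: the Sprr2a1 and Sprr2a2 windows were identical over 300 bases, and Sprr2d matched Sprr2e at 89.7% of bases, so reads near SPRR2 and LCE genes may be assigned to the wrong copy.

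Summed counts in peaks ranged from 32086654 in HF to 62941406 in Lgr5 Epcam+ sample 1, so that sample is the most deeply read. The complex took 0.181% of these counts in HF, 0.186% in IFE, 0.203% in the K14 Epcam+ sample, 0.202% and 0.184% in the Lgr5 Epcam+ pair and 0.132% in Lgr5 Epcam- cells. The level per kb of peak was 4.63 CPM in HF, 5.22 in IFE, 5.77 in the K14 Epcam+ sample, 6.74 and 5.72 in Lgr5 Epcam+ and 3.74 in Lgr5 Epcam-, so the Epcam- cells were lowest. Of the 294 peaks, 291 had a protein-coding gene span within 50 kb, 37 lay within 1 kb of a start site (12.6%, and 13.3% of all peaks), and all 294 passed the filter on low counts. By nearest gene, 76 peaks belong to S100 genes, 36 to SPRR, 37 to LCE, 43 to fused S100-type genes, 46 to other cornification genes, 53 to other genes in the window and 3 to none. In bulk samples, fewer cells of a type and less accessibility per cell cannot be told apart. The share of reads that fell in peaks also differed between samples. In the single-end runs it was 21.3% in HF, 26.2% in IFE and 32.8% in the K14 Epcam+ sample. It was 43.7% and 38.6% in Lgr5 Epcam+ samples 1 and 2 and 31.6% in Lgr5 Epcam- cells. The paired-end runs gave the same order, and the part of this difference in the results below was not tested.

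**Figure D1:**
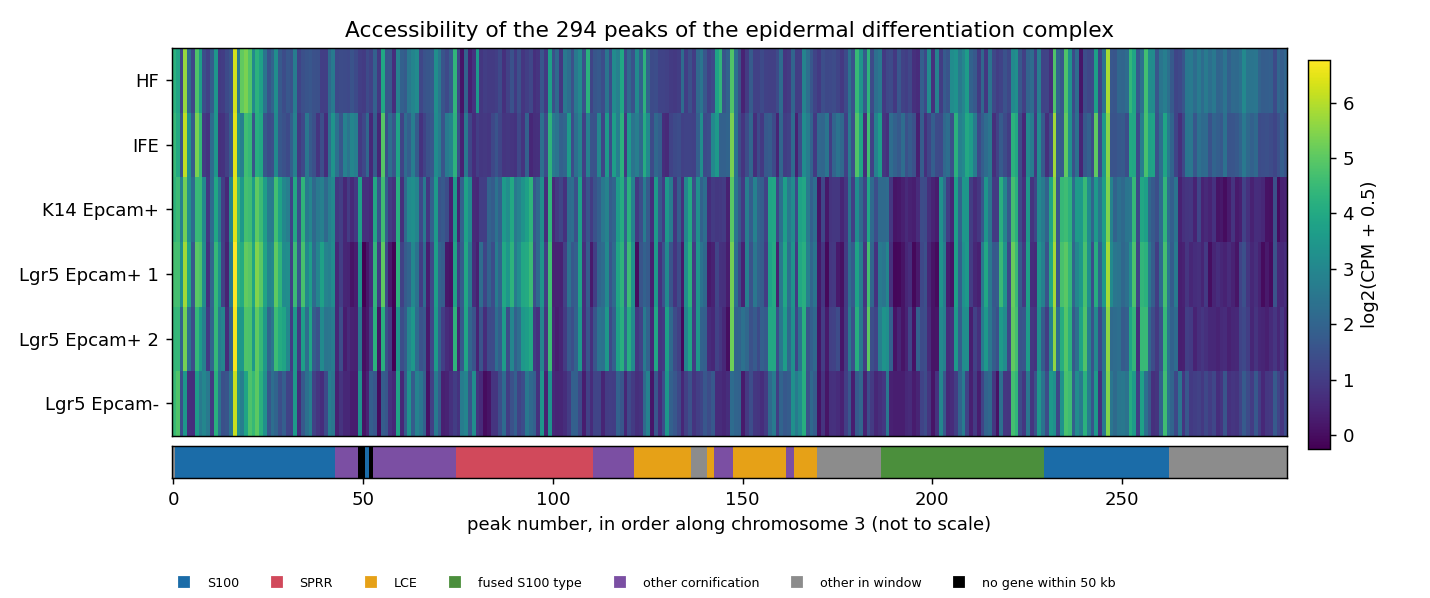
Level of each of the 294 peaks (columns, in order along chromosome 3) in each sample (rows), as log2(CPM + 0.5), with the gene group of the nearest gene below. Bright columns in the S100 groups at both ends are open in every sample, the last stretch on the right (Tdpoz genes) is brighter in HF and IFE, and many SPRR and LCE columns are brighter in the 3 Epcam+ tumour samples.

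Epcam+ tumours opened SPRR, LCE and S100 sites that were low in normal epithelia, while nearly all Tdpoz sites were lower. Sites of other cornification genes were called lower more often than higher. In the mean of the K14 and Lgr5 Epcam+ groups against the mean of HF and IFE, edgeR's quasi-likelihood test called 68 of the 294 peaks higher and 72 lower at an adjusted p below 0.05, against 15.2% and 14.3% of all 177238 peaks tested. The median log2 ratio was 0.09 over the complex, -0.0023 over all peaks and 0.02 over the 1176 peaks of the chromosome within 5 Mb on either side. With total-count scaling the median of the complex was -0.08 and in the paired-end run alone -0.0026, so it has no stable sign. Under total-count scaling the median of all peaks was also below 0, at -0.19. Higher peaks lay mostly at high levels: 67 of the 68 were above the median level of all peaks, against 13 of the 72 lower ones. That level is a mean over all samples, tumours included, so peaks that are high in tumours pass it more readily. Both normals also had the lowest shares of reads in peaks, and the part of this in the split was not tested. Summed by gene, 21 of 63 genes that were nearest to a peak were higher and 9 lower, against 12.8% and 9.6% of 18104 genes, with a median of 0.38 over the 63 and 0.01 over all. The lone samples were assumed to vary as the Lgr5 Epcam+ pair does, which gives 1 residual degree of freedom.

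SPRR peaks rose at 13 of 36 sites and fell at 5 (median log2 ratio 0.76). The peak beside Sprr3 (chr3:92454815-92455890) had 1.90 CPM in HF and 0.968 in IFE, 19.3 in the K14 Epcam+ sample, 22.9 and 15.3 in the Lgr5 Epcam+ pair and 3.99 in Lgr5 Epcam- cells. Its log2 ratio of tumours to normals was 3.82 ± 0.45 (SE, edgeR adjusted p = 8.78e-05). All 3 Epcam+ tumour samples lay far above both normals, and the Epcam- cells lay between. The start-site peak of Sprr1b (chr3:92438263-92439316), whose promoter above holds 1 AP-1 match, went from 1.32 CPM in HF and 1.25 in IFE to 9.71 in K14 Epcam+ and 15.0 and 10.7 in Lgr5 Epcam+, with 2.19 in Epcam- cells (log2 ratio 3.12 ± 0.50, edgeR adjusted p = 0.000773). Near Sprr2i, the peak at chr3:92410085-92411175 had 1.16 and 1.31 CPM in the normals and 11.2, 14.9 and 11.97 in the Epcam+ tumours (3.31 ± 0.49, edgeR adjusted p = 0.000455). The Sprr2h start-site peak (chr3:92385151-92386160) stayed low, at 1.57 and 2.48 CPM in the normals and 4.91, 6.07 and 4.44 in the tumours, and its call (edgeR adjusted p = 0.04) was lost with total-count scaling, in the paired-end run alone and with DESeq2. By gene, Sprr2i (log2 ratio 2.85 ± 0.35), Sprr1b, Sprr3, Sprr2k and Sprr2a3 rose and Sprr2b fell.

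Sprr1a, a paralog of Sprr1b with 2 AP-1 matches in its promoter, was already open in normal skin. Its start-site peak (chr3:92485490-92486774) had 13.0 CPM in HF, 19.6 in IFE, 20.4 in the K14 Epcam+ sample and 24.4 and 23.3 in Lgr5 Epcam+, and did not pass the test (log2 ratio 0.47 ± 0.27, edgeR adjusted p = 0.212). The involucrin start-site peak (chr3:92573178-92574373) gave 6.63 and 6.40 CPM in the normals and 11.7, 14.3 and 12.9 in the tumours. It did not pass the test (0.95 ± 0.40, edgeR adjusted p = 0.0903). No peak covered the loricrin promoter window, and over its 4 nearest peaks Lor had 17.3 CPM in HF, 24.9 in IFE, 25.6 in the K14 Epcam+ sample, 23.1 and 16.5 in Lgr5 Epcam+ and 20.1 in Epcam- cells, with no order by group.

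LCE peaks rose at 13 of 37 sites and fell at 4 (median 0.35). LCE3 genes lie towards the far end of the cluster, and the peak at chr3:93000154-93001189 near Lce3f had 1.32 and 1.57 CPM in HF and IFE, 12.4 in K14 Epcam+, 15.0 and 12.2 in Lgr5 Epcam+ and 2.76 in Epcam- cells (log2 ratio 3.17 ± 0.48, edgeR adjusted p = 0.000547). Another Lce3f site (chr3:92986381-92987439) gave 1.62 and 2.05 CPM in the normals and 14.9, 16.2 and 15.3 in the tumours. Near Lce1k, chr3:92814393-92815522 went from 2.26 and 1.74 CPM to 15.5, 18.5 and 13.8. By gene, 7 of 15 LCE genes rose, among them Lce3e (2.64 ± 0.37), Lce1d (2.14 ± 0.37) and Lce3f (1.96 ± 0.26), and Lce6a and Lce1l fell. Lce6a stood apart, with 8.09 and 6.32 CPM in the normals and 1.39, 0.492 and 1.36 in the tumours at chr3:92598174-92599202 (-2.66 ± 0.52, edgeR adjusted p = 0.00288).

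S100 peaks rose at 26 of 76 sites and fell at 4 (median 0.69). Those between the start of the window and Lor rose at 18 of 43, and those around S100a10 and S100a11 at the far end at 8 of 33. A group of 3 sites flanks S100a11, whose product is a calcium-binding protein of keratinocytes that is crosslinked into the envelope. The one at chr3:93530107-93531213 had 0.633 and 0.911 CPM in HF and IFE, 11.3 in K14 Epcam+, 10.8 and 13.5 in Lgr5 Epcam+ and 5.73 in Epcam- cells (log2 ratio 3.94 ± 0.52, edgeR adjusted p = 0.000192). The one at chr3:93536779-93537844 had 2.15 and 2.70 CPM in the normals, 21.8, 25.9 and 28.4 in the Epcam+ tumours and 18.5 in Epcam- cells, and had the lowest adjusted p of the complex (3.34 ± 0.33, edgeR adjusted p = 2.67e-05). The third, chr3:93517054-93518097, went from 2.64 and 2.76 CPM to 21.5, 26.1 and 16.9. A stronger site of the same gene, chr3:93506085-93507314, had 28.2 CPM in HF, 53.8 in IFE, 45.6 in the K14 Epcam+ sample and 56.1 and 48.0 in Lgr5 Epcam+ and did not pass the test (0.32 ± 0.19, edgeR adjusted p = 0.229), so sites around a single gene did not move alike.

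S100a7a, S100a8 and S100a9 encode proteins of inflamed epidermis, and S100a8 and S100a9 are also abundant in neutrophils. A peak beside S100a7a (chr3:90658645-90659703) had 2.28 and 1.96 CPM in the normals, 19.9 in K14 Epcam+, 26.0 and 12.5 in Lgr5 Epcam+ and 2.81 in Epcam- cells (log2 ratio 3.21 ± 0.46, edgeR adjusted p = 0.000462). The S100a9 start site (chr3:90695305-90696332) had 1.60 and 2.22 CPM in HF and IFE, 6.53 in K14 Epcam+, 13.1 and 8.21 in Lgr5 Epcam+ and 1.11 in Epcam- cells (2.14 ± 0.49, edgeR adjusted p = 0.00601). The S100a8 start site (chr3:90668398-90669542) had 2.64 and 2.90 CPM in the normals, 7.32, 12.3 and 14.2 in the Epcam+ tumours and 6.46 in Epcam- cells (1.83 ± 0.45, edgeR adjusted p = 0.00834). At all 3 sites every Epcam+ tumour sample lay above both normals, but the sites were named for their ratios or after their values were seen. The share of all peaks that separate in this way was not counted. Neutrophil and macrophage markers moved with these sites: of 11 measured, 4 were higher (Ptprc, Itgam, Cd68 and Cxcr2) and 1 lower (Adgre1), against 12.8% and 9.6% of all genes, and their summed level was 164 and 204 CPM in HF and IFE and 294 to 322 in the Epcam+ tumours. The neutrophil genes Ly6g and Mpo did not pass (edgeR adjusted p = 0.0876 and 0.0607) and Csf3r stood at 3.57 to 7.50 CPM in all 6 samples. Elane was not among the genes measured. Of 5 endothelial genes 3 were higher (Cdh5, Tie1 and Emcn), against the same 12.8%. The part of such cells in the S100a8 and S100a9 result was not tested.

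Fused S100-type genes were divided, with 8 of 43 peaks higher and 12 lower (median -0.0025), and of the 6 genes trichohyalin alone was called. Trichohyalin (Tchh), known from the inner root sheath of the hair follicle, had 33.4 CPM over its 7 peaks in HF, 47.8 in IFE, 88.2 in the K14 Epcam+ sample, 104 and 96.0 in Lgr5 Epcam+ and 64.3 in Epcam- cells (log2 ratio 1.23 ± 0.24, edgeR adjusted p = 0.00319). Its distal peak at chr3:93428889-93429987 went from 1.76 and 2.93 CPM in the normals to 17.7, 22.2 and 11.8 in the Epcam+ tumours. Filaggrin was low throughout, at 6.80 CPM over 3 peaks in HF, 6.91 in IFE, 4.71 in the K14 Epcam+ sample, 3.29 and 6.77 in Lgr5 Epcam+ and 3.96 in Epcam- cells. Around hornerin (Hrnr), a filaggrin-like gene, 3 peaks fell (their values stand with the HF comparison below) while the one at chr3:93346481-93347600 rose from 1.54 and 1.96 CPM to 9.44, 9.85 and 7.84. The repetin (Rptn) peak at chr3:93369247-93370260 had 3.38 CPM in HF, 12.04 in IFE and 1.54, 1.51 and 0.775 in the Epcam+ tumours (-2.26 ± 0.48, edgeR adjusted p = 0.00399).

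Peaks of other cornification genes were higher at 5 of 46 sites (10.9%) and lower at 14 (30.4%), against 15.2% and 14.3% of all peaks (median -0.02). The lowest adjusted p among the lower ones was at 2310050C09Rik, also known as Kplce, a gene for an envelope protein. Its start-site peak (chr3:92869640-92870779), over the promoter with no AP-1 match shown above, had 13.7 CPM in HF and 11.2 in IFE, 1.35 in the K14 Epcam+ sample, 1.81 and 1.67 in Lgr5 Epcam+ and 1.06 in Epcam- cells (log2 ratio -3.01 ± 0.47, edgeR adjusted p = 0.00062). All 4 tumour samples lay below 2 CPM. A neighbouring peak at chr3:92872132-92873151 had 20.4 CPM in HF, 3.33 in IFE and 1.06 to 1.39 in the tumours (-2.63 ± 0.46, edgeR adjusted p = 0.00135). Pglyrp4, a peptidoglycan recognition gene, fell over its 6 peaks from 15.8 CPM in HF and 36.1 in IFE to 9.28, 6.09 and 7.35 (-1.60 ± 0.31, edgeR adjusted p = 0.00309). Its relative Pglyrp3, elsewhere in the window, did not pass as a gene (0.66 ± 0.24, edgeR adjusted p = 0.0624), although its peak at chr3:92012906-92014014 rose from 3.33 and 2.99 CPM to 15.2, 20.4 and 18.2.

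A block of 27 peaks around Tdpoz3 and Tdpoz4, genes of a BTB-domain family, held 26 of the 72 lower peaks. Its median peak had 4.18 CPM in HF, 3.10 in IFE, 0.872 in the K14 Epcam+ sample, 0.966 and 1.01 in Lgr5 Epcam+ and 1.53 in Epcam- cells. These levels are low, and how multiply aligned reads were handled is not given in the sources used here. Without the block, 68 peaks were higher and 46 lower, and the median of the complex was 0.25. Among members above the median level of all peaks, 67 were higher and 13 lower, with a median of 0.79. That level is a mean over all samples, tumours included, so the filter itself favours peaks that are high in tumours.

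**Figure D2:**
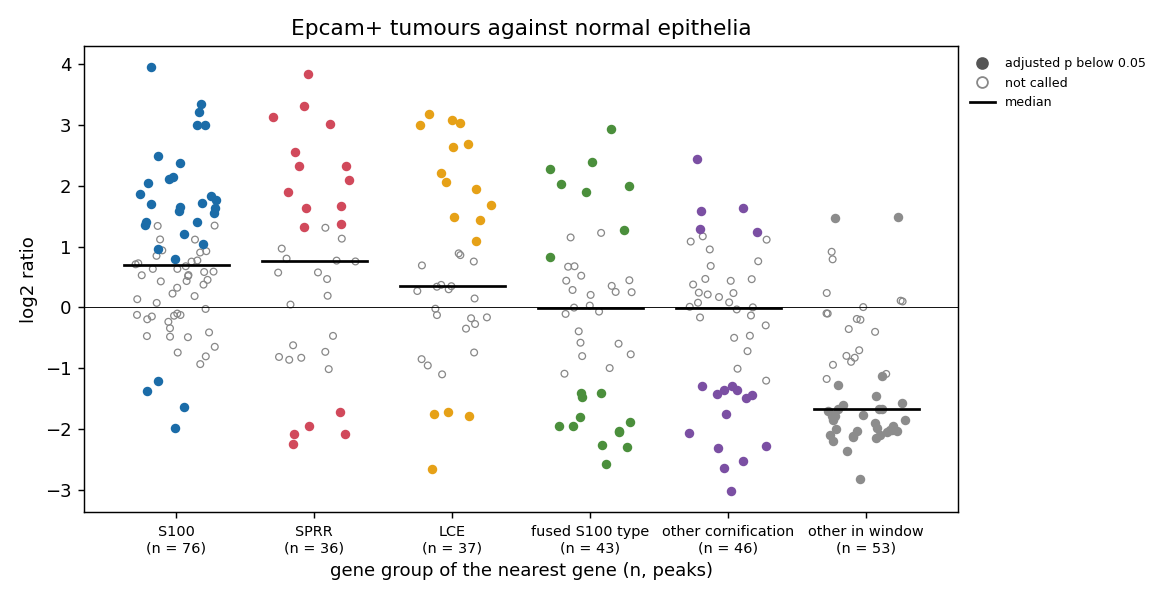
Log2 ratio of Epcam+ tumours to normal epithelia for each peak (circles), by gene group; filled circles passed edgeR at an adjusted p below 0.05 and bars are medians. The medians are 0.69 for S100, 0.76 for SPRR and 0.35 for LCE, near 0 for fused S100-type and other cornification genes, and -1.66 for the remaining genes, most of whose low points are the Tdpoz block.

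**Figure D3:**
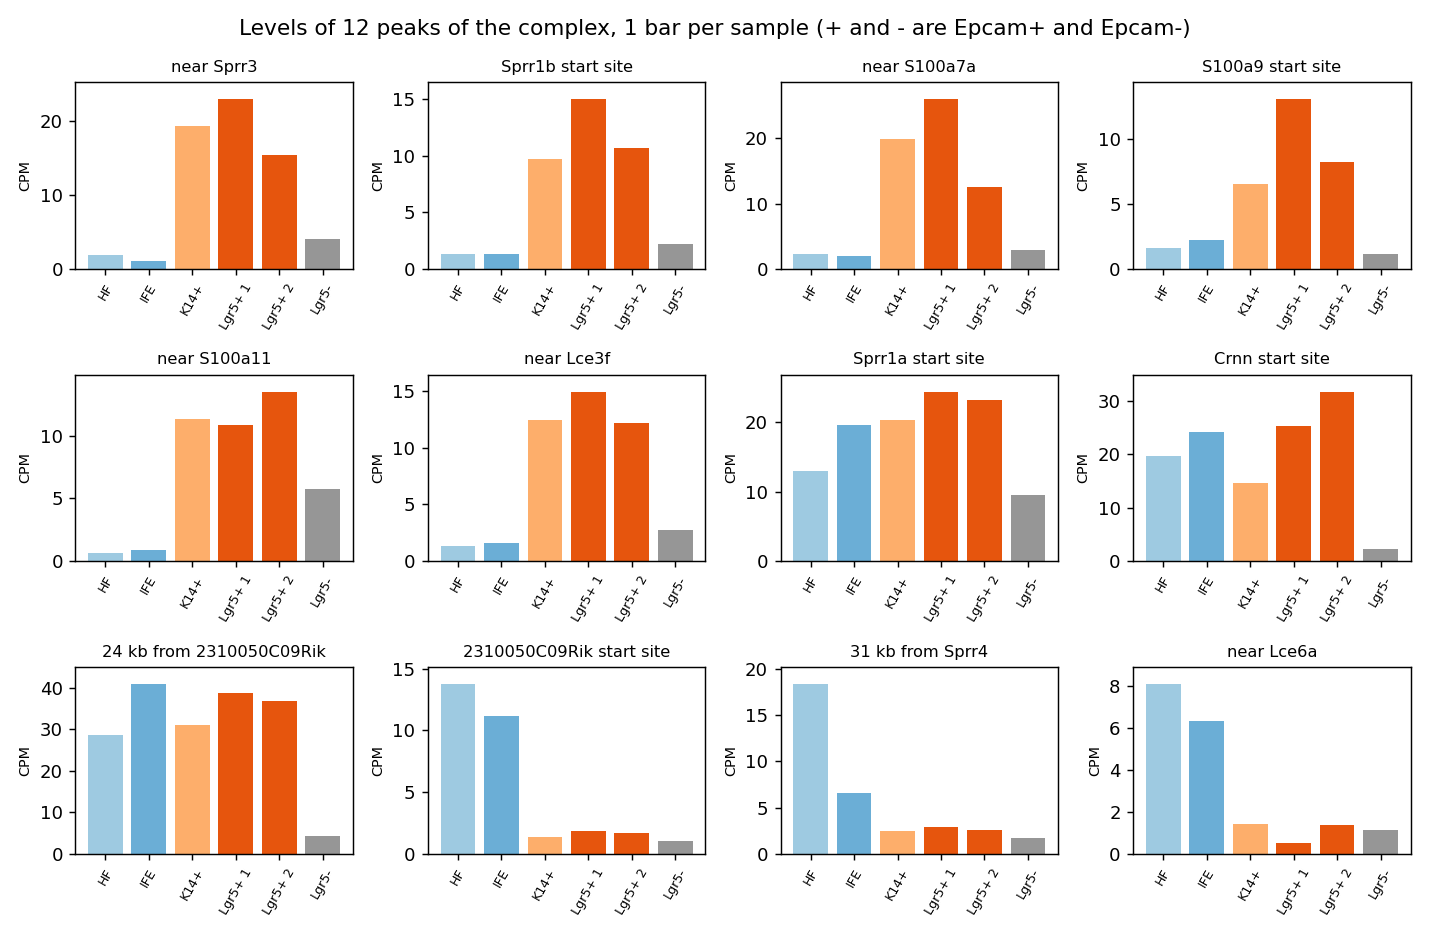
Level in CPM of 12 peaks in each of the 6 samples, with axes starting at 0. The first 6 are low in HF and IFE and high in the Epcam+ tumours, the next 3 are open in normal and Epcam+ samples alike and low in Lgr5 Epcam- cells, and the last 3 are open in HF and IFE and low in all tumour samples.

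By the strict rule of size, few peaks of the complex were called between normal hair follicle and epidermis. With 1 sample against 1 there is no p-value; a peak was called where the log2 ratio reached 2 in the summed runs and 1 in the same direction in each of the 2 sequencing runs, a rule that called 0.434% and 0.962% of all peaks, and 1 and 3 of the 294, between the Lgr5 Epcam+ samples. In HF against IFE it called 4 of the 294 peaks higher (1.36%) and 0 lower, against 1.55% and 0.53% of all peaks. These counts are near the shares of all peaks. The 4 were near S100a3 (32.7 and 6.49 CPM), Sprr2b (11.3 and 1.59), 2310050C09Rik (20.4 and 3.33, chr3:92872132-92873151) and Hrnr (8.42 and 1.85). At a lower limit, log2 ratios of 1 in the sum and 0.5 in each run, 12 of the 294 peaks were higher in HF and 40 lower. The shares of all peaks at that limit were 7.53% and 8.28%. Of the 40, 14 belong to other cornification genes and 9 to fused S100-type genes. By gene, at that lower limit, Sprr2b was higher in HF (log2 ratio 2.37) and Pglyrp4 (-1.19) and Lce1l (-1.23) were lower, 1 and 2 of 63 genes against 2.62% and 1.48% of all.

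K14 Epcam+ tumour cells against IFE gave 30 peaks higher and 26 lower by the rule of size, against 7.34% and 5.87% of all peaks, with a median log2 ratio of 0.01. The higher ones belong to S100 (11 peaks), LCE (8), SPRR (7), fused S100-type (2) and other cornification genes (1), and 1 has no gene. By size the first was the Sprr3 peak given above, with a log2 ratio of 4.25 (3.65 in the single-end and 5.14 in the paired-end run), then S100a11 at chr3:93530107-93531213 (3.57), Sprr2i at chr3:92417198-92418523 (3.50) and Lce1d at chr3:92691371-92692449 (3.33). The 4 lower peaks above the median level of all peaks were at 2310050C09Rik (-3.01), Rptn (-2.92), S100a10 (chr3:93585926-93587109, -2.24) and Lce6a (-2.14). By gene 18 of 63 were higher and 8 lower, against 11.3% and 7.42% of all genes. Among them, 8 of the 15 LCE genes and 7 of the 13 SPRR genes were higher. By the same rule 4 of 5 endothelial genes (median 1.65, summed level 416 CPM against 230 in IFE) and 4 of 11 neutrophil and macrophage genes (median 0.63, 322 against 204 CPM) were higher, and their part in this comparison was not tested.

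Lgr5 Epcam+ tumour cells against HF gave 45 peaks higher and 42 lower by edgeR at an adjusted p below 0.05, against 8.88% and 7.41% of all peaks, with a median of 0.11 that became -0.21 with total-count scaling. This split depended on the method: it was 37 and 60 with total-count scaling, 48 and 18 with DESeq2, and 45 and 18 without the Tdpoz block, which held 24 of the 42. S100 peaks were higher at 16 and lower at 1 of 76, LCE at 9 and 3 of 37, and SPRR at 8 and 4 of 36. A comparison with HF differs from one with IFE at sites that were open in HF: the 2310050C09Rik peak at chr3:92872132-92873151 fell by 4.004 ± 0.57 on the log2 scale (edgeR adjusted p = 0.000855), with 20.4 CPM in HF and 1.27 ± 0.095 (SD, n = 2) in Lgr5 Epcam+. The Sprr2b peak at chr3:92308059-92309059 fell from 11.3 CPM to 0.835 ± 0.047 (SD, n = 2), and the Sprr4 peak at chr3:92531987-92533162 from 18.4 to 2.72 ± 0.26. Near Hrnr, peaks at chr3:93322568-93323568, chr3:93344833-93345833 and chr3:93353681-93354699 had 8.42, 6.71 and 8.58 CPM in HF, 1.85, 2.05 and 2.28 in IFE and at most 1.17 in any Epcam+ tumour sample. By gene 13 of 63 were higher and 5 lower, against 5.8% and 5.05% of all genes; the higher ones include S100a6, S100a7a, S100a8, Tchh and the SPRR and LCE genes Sprr1b, Sprr2i, Sprr3, Sprr2a3, Lce3e and Lce3f.

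No site of the complex was called between tumours of the 2 Cre lines. In Lgr5 Epcam+ against K14 Epcam+, edgeR called 0 of 294 peaks in either direction at an adjusted p below 0.05, against 0.000564% and 0.0079% of all peaks; DESeq2 also called 0, and 5 members had an unadjusted p below 0.05 (1.7%, and 5.65% of all peaks). The lowest adjusted p was 0.855, and log2 ratios ran from -1.62 to 1.49 around a median of 0.00. With 1 K14 Epcam+ sample this does not show that they are alike. The Lgr5 Epcam+ samples themselves were offset: SPRR peaks had a median log2 ratio of 0.33 of sample 1 to sample 2, with 29 of 36 above 0, and S100 peaks 0.40, with 63 of 76 above 0, against -0.02 over all peaks. At the S100a7a peak, for instance, they had 26.0 and 12.5 CPM.

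In cells without Epcam, peaks of the complex were called lower more often than higher. Some of the lower ones were shared by normal and Epcam+ tumour epithelia, while the Tdpoz block had a median log2 ratio of 0.58 with no peak called. In Lgr5 Epcam- against Lgr5 Epcam+, edgeR called 4 peaks higher and 40 lower at an adjusted p below 0.05, against 6.69% and 5.27% of all peaks, with a median log2 ratio of -0.32 over the complex, -0.05 over all peaks and 0.09 over the flanking 5 Mb on each side. Lower peaks numbered 12 of 76 for S100, 10 of 46 for other cornification genes, 5 of 36 for SPRR, 5 of 43 for fused S100-type, 4 of 37 for LCE and 4 of 53 for the remaining genes. For the remaining genes that is 7.55%, near the 5.27% of all peaks. By gene 15 of 63 were lower and 1 higher, against 3.31% and 3.47% of all genes, with a median of -0.61. Of the 37 peaks within 1 kb of a start site, 11 were lower (29.7%), and of the other 257 peaks 29 were (11.3%). The share among start-site peaks of all genes was not counted.

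The cornulin start site (Crnn, chr3:93144203-93145332), a gene of the fused S100 family that is counted here with the remaining genes of the window, had 19.6 CPM in HF, 24.1 in IFE, 14.5 in the K14 Epcam+ sample, 25.2 and 31.6 in Lgr5 Epcam+ and 2.19 in Epcam- cells (log2 ratio -3.69 ± 0.43, edgeR adjusted p = 0.000803). A peak 24 kb from 2310050C09Rik (chr3:92893922-92895728) had 28.7 and 40.9 CPM in the normals, 31.04, 38.8 and 36.9 in the Epcam+ tumours and 4.22 in Epcam- cells (-3.16 ± 0.33, edgeR adjusted p = 0.000539). The strong S100a11 peak at chr3:93506085-93507314 stood at 9.10 CPM against 28.2 to 56.1 in the other 5 samples (-2.52 ± 0.29, edgeR adjusted p = 0.000747). In all 3, the Epcam- sample was the lowest of the 6. The S100a14 peak at chr3:90525302-90527474 was at 10.6 CPM against 38.2 to 67.6 (-2.14 ± 0.30), and the Smcp peak at chr3:92578964-92580165 at 2.59 against 14.8 to 19.6 (-2.84 ± 0.46). Of the other start-site peaks whose promoters are shown above, 4 were lower, with or without an AP-1 match: S100a9 at 1.11 CPM against 13.1 and 8.21 (-3.26 ± 0.72, edgeR adjusted p = 0.0124), Ivl at 3.37 CPM against 14.3 and 12.9 (-2.01 ± 0.57, edgeR adjusted p = 0.036), Sprr1b at 2.19 against 15.0 and 10.7 (-2.55 ± 0.66, edgeR adjusted p = 0.0243) and Sprr1a at 9.58 against 24.4 and 23.3 (-1.31 ± 0.37, edgeR adjusted p = 0.0356, not called by DESeq2). Sprr2h, with a match, did not pass (1.30 CPM, -2.02 ± 0.65, edgeR adjusted p = 0.0587), nor did 2310050C09Rik, without one (1.06 CPM, -0.71 ± 0.62, edgeR adjusted p = 0.549). Sprr1b in Epcam- cells lay above both normals (1.32 and 1.25 CPM), whereas Crnn and Ivl lay below them.

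Some sites that opened in Epcam+ tumours did not pass as lower in Epcam- cells. The Lce1d peak at chr3:92691371-92692449 had 1.65 and 1.02 CPM in the normals, 10.7, 8.06 and 12.9 in the Epcam+ tumours and 10.7 in Epcam- cells (log2 ratio of Epcam- to Epcam+ 0.02 ± 0.57, edgeR adjusted p = 0.988). The S100a11 peak at chr3:93536779-93537844 kept 18.5 CPM (-0.55 ± 0.38, edgeR adjusted p = 0.41). The site nearest S100a4 at chr3:90605505-90606850 had 8.09 CPM in HF, 2.62 in IFE, 11.7 in the K14 Epcam+ sample, 14.4 and 11.1 in Lgr5 Epcam+ and 21.7 in Epcam- cells, the highest of the 6, with no call between Epcam- and Epcam+; S100a4 is known as a gene of motile and mesenchymal cells. The 4 higher peaks were near S100a3, Sprr2b, Lce1m and Tdpoz2 and were low, at 4.95 to 8.68 CPM in Epcam- cells. Marker genes moved with this comparison: 7 of 8 keratinocyte genes were lower, against 3.31% of all genes (median -1.73, summed level 752 CPM against 2497 and 2097) and 5 of 6 fibroblast genes higher, against 3.47% (median 1.59, 640 CPM against 218 and 239), while Krt5 (40.2 CPM) and Krt14 (50.7 CPM) were still detected. Epcam, the gene of the protein used in the sort, is 1 of those 7 keratinocyte genes. The part of these cell types in the lower levels over the complex was not tested.

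**Figure D4:**
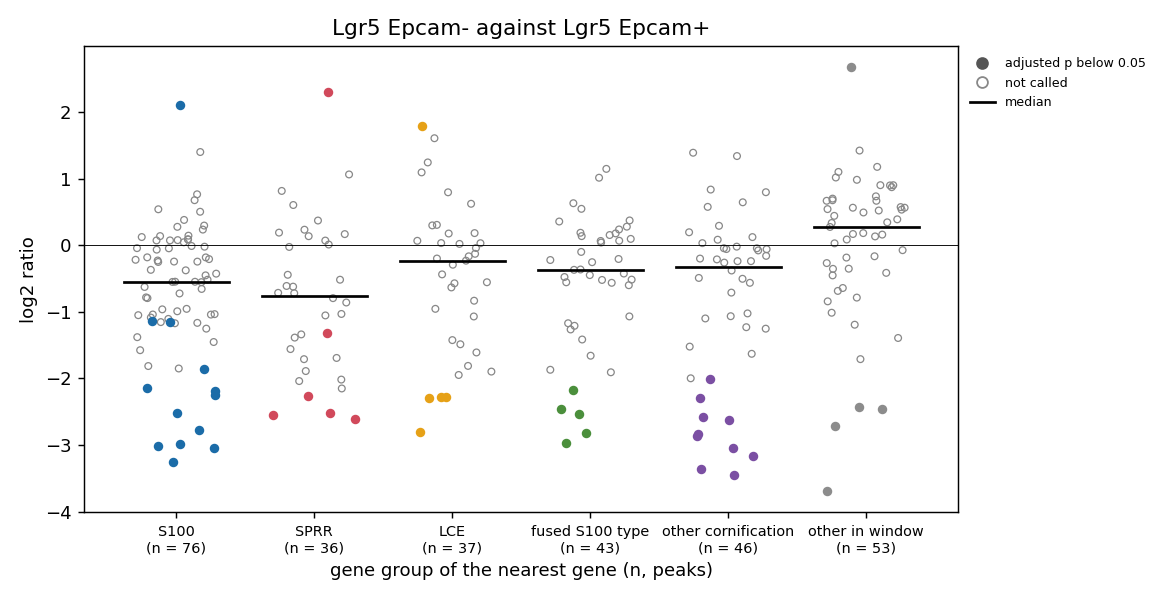
Log2 ratio of Lgr5 Epcam- to Lgr5 Epcam+ for each peak (circles), by gene group; filled circles passed edgeR at an adjusted p below 0.05 and bars are medians. Medians lie below 0 in 5 of the 6 groups, from -0.76 for SPRR to -0.23 for LCE, and at 0.28 for the remaining genes, and filled points are nearly all below 0.

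Elsewhere in the genome, genes of the same programme gave a mixed picture. The shares of all genes called in Epcam+ tumours against normals were 12.8% higher and 9.6% lower. Of 15 regulators 3 were higher in Epcam+ tumours than in normal epithelia: the AP-1 gene Fosl1 (17.5 and 19.8 CPM in the normals, 54.2, 91.1 and 50.03 in the tumours, log2 ratio 1.73, edgeR adjusted p = 0.00205), Prdm1 and Cebpb; that is 20% of the list and 1 of 8 enzymes is 12.5%, both near the share of all genes. No regulator was lower, and Klf4 and Trp63 did not pass (edgeR adjusted p = 0.112 and 0.356). Suprabasal keratin and desmosome genes were lower at 4 of 6 (Krt1, Krt10, Krt2 and Dsg1a, median -1.42), and the wound keratins Krt6a, Krt6b, Krt16 and Krt17 were all higher (median 1.68). Of the 8 enzymes, 1 was higher (Klk7) and 3 were lower (Tgm5, Casp14 and Klk5). In Epcam- against Epcam+ cells, where 3.31% of all genes were lower, 3 regulators (Grhl3, Zfp750 and Tfap2c) and all 4 wound keratins were lower. Which of these factors bind the sites of the complex was not measured.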

How the data were processed

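The data are 12 tables of raw counts per peak, 2 sequencing runs (single-end and paired-end) of each of 6 ATAC-seq samples, deposited by the authors with 1 peak list. The counts are whole reads in peaks, not normalized. Bowtie2, HOMER, bedtools, HTSeq and the mm10 build are named in the submitters' processing notes; their versions, filters and strand setting, and the handling of multiply aligned reads, are not stated there or in the labels. All samples share the 1 deposited peak list; whether peaks were called per run or on pooled runs is not stated there, though the names hold the word merge.

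Runs were summed per sample. Peaks were given the protein-coding gene whose span lay nearest, up to 50 kb away (RefSeq, GRCm38.p6), and gene counts are sums over these peaks. edgeR 4.0.16 (R 4.3.3, limma 3.58.1) fitted all 6 samples as 5 groups with TMM scaling, a minimum count of 10 (filterByExpr), a robust quasi-likelihood fit and Benjamini-Hochberg adjustment over all peaks or genes at 0.05. The Lgr5 Epcam+ pair gives the 1 residual degree of freedom. Where each group is 1 sample, calls are by size: log2 ratio of 2 in the sum and 1 in each run (1 and 0.5 for genes), with a prior count of 2. DESeq2 1.42.0, total-count scaling, no filter, each run alone, fewer samples, centring on flanking peaks, a gene distance of 10 kb and leaving out each Lgr5 Epcam+ sample were alternatives. Other steps were run in Python 3.11.15. Only the edgeR fit was tested on simulated counts with known changes, for peaks in Lgr5 Epcam+ against HF. The rule of size, the sums by gene and the motif search were not tested in that way.

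The members, gene groups and lists were chosen with earlier results of these data known. The naming rule took, per comparison, up to 4 higher and 4 lower called peaks above the median level with the largest ratios, 1 per gene, and the highest peaks of each sample; genes of the window could be named by group. Other peaks named were chosen after their values were seen. The depth of a sample, its summed counts in peaks, is given with the results. A further element of the tumour genotype is not reported here.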

Additional observations from a re-analysis of the deposited data

How the results depend on the processing

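Of 104 alternative counts of calls, 86 stayed within 1.5 times the reported one and 18 did not. In HF against IFE, 4 higher peaks became 2 in the single-end run alone, 12 at the limit of 1 and 0.5, and 2 among members above the median level; 0 lower became 7 in the paired-end run alone and 40 at that limit. In K14 Epcam+ against IFE, 26 lower became 17 in the single-end run, 80 at the lower limit and 4 above the median level, and 30 higher became 80 at the lower limit. In Lgr5 Epcam+ against HF, 42 lower became 18 with DESeq2, 18 without the Tdpoz peaks and 7 above the median level. In Lgr5 Epcam- against Lgr5 Epcam+, 4 higher became 2 with DESeq2 and 0 above the median level. In Epcam+ tumours against normals, 72 lower became 46 without the Tdpoz peaks and 13 above the median level. With peaks within 10 kb, genes higher became 3 in HF against IFE and 2 in Lgr5 Epcam- against Lgr5 Epcam+. The Tdpoz and median-level alternatives were chosen after seeing the data, and they test fewer members by construction. The median level is also a mean over all samples, so it favours members that are high in the Epcam+ tumours. At the lower limit of size a count can only stay or grow, because every peak called at the strict limit passes it. The cause of the remaining changes was not tested.

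Without either Lgr5 Epcam+ sample no residual degree of freedom is left, so only values were computed: the median log2 ratio of the complex ran from 0.07 to 0.12 against HF, from -0.07 to 0.07 against K14 Epcam+ and from -0.31 to -0.25 in Epcam- cells. Total-count scaling moved the median of all peaks by -0.32 in Lgr5 Epcam+ against HF, -0.17 in tumours against normals, 0.13 in HF against IFE and 0.19 in Epcam- against Epcam+. Under it the median of the complex changed sign in the first 3, from 0.11 to -0.21, from 0.09 to -0.08 and from -0.06 to 0.07, and in Epcam- cells it went from -0.32 to -0.12. The balance of calls turned too: HF against IFE gave 5 higher and 7 lower in the paired-end run and 12 and 40 at the lower limit, Lgr5 Epcam+ against HF 37 and 60 with total-count scaling and 42 and 47 with only the groups compared, and tumours against normals 76 and 68 in the single-end run and 62 and 52 with DESeq2, against 68 and 72. K14 Epcam+ against IFE gave 34 and 36 in the paired-end run, against 30 and 26. No paired analysis was possible because only the Lgr5 Epcam+ group has 2 samples and no numbering is shared across groups. Low peaks, of about 1 CPM, limit what ratios can show, and lone samples limit every p-value.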
